A study of Mus musculus with 4 samples.

Results

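B-cell progenitors were compared between 2 single-cell libraries of mouse bone marrow, labelled Mll3/4 deleted and Mll3 deleted, so that the difference in labels is the loss of Mll4 on top of the loss of Mll3. A barcode counted as a B progenitor if it held at least 500 genes, at least 1000 gene UMIs (molecules told apart by a random tag) and at most 10% mitochondrial UMIs. The UMIs of 6 early B-cell genes (Cd79a, Cd79b, Vpreb1, Vpreb3, Igll1 and Ebf1) also had to sum to at least 20 per 10000. Barcodes with both 1 or more Ms4a1 UMIs and 3 or more Igkc UMIs, which mark mature B cells with a kappa light chain, were left out. This gate held 7323 cells of the Mll3/4-labelled library and 492 cells of the Mll3-labelled library, 7815 in all, of 27166 cells kept in the 4 libraries of the series. The cells were thus selected on their RNA counts of 8 genes, and levels of those genes are given as a description only.

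Each library came from bone marrow cells positive for Kit and CD45.2, 10 weeks after transplantation, stained with 13 barcoded surface antibodies and 2 hashtags and sequenced from the 3′ end of transcripts. The series has 1 library per group, labelled control, Mll3 deleted, Mll4 deleted or Mll3/4 deleted. The control and Mll4-labelled libraries, gated in the same way, gave 535 and 163 cells and stand beside the results. Below, Mll3-labelled, Mll4-labelled and Mll3/4-labelled cells are the gated cells of the library with that label. The alleles, the driver of deletion, the strain, the recipients and the meaning of each hashtag are not given in the sources used here. With 1 library in each group there was no test. Intervals are 95% and cover counting error only, and every difference is between libraries.

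Mll3 and Mll4, encoded by Kmt2c and Kmt2d, are related histone methyltransferases that place monomethyl marks on lysine 4 of histone H3, mostly at enhancers, within complexes that also hold Kdm6a, Paxip1 and Ncoa6. B progenitors in marrow grow under interleukin-7, switch on Ebf1 and Pax5, and rearrange the immunoglobulin heavy chain. A successful heavy chain pairs with the surrogate light chain, made of Igll1 and a Vpreb protein, to form the pre-B-cell receptor. Signals from that receptor, through the kinases Lyn, Blk, Syk and Btk, move the cell on to light chain rearrangement.

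The genes named in the labels were examined first. Kmt2c (ENSMUSG00000038056, chromosome 5 from 25271798 to 25498783 in GRCm38) stood at 52.4 CPM (UMIs of the gene scaled to a common total of gene UMIs over the gated cells) in control cells, 32.0 in Mll3-labelled, 41.1 in Mll4-labelled and 34.8 in Mll3/4-labelled cells. Kmt2d (ENSMUSG00000048154, chromosome 15 from 98831669 to 98871204) stood at 40.2, 30.1, 19.5 and 25.1 CPM in the same order. From the Mll3- to the Mll3/4-labelled cells, Kmt2d differed by 0.834-fold (0.690 to 1.02), so no fall was detectable at this depth. Deletion of an upstream exon need not lower counts taken at the 3′ end, and each direction drawn below for Mll4 rests on the label. In the Mll4-labelled cells Xist was at 0 CPM, against 1372 CPM in control, 1275 in the Mll3-labelled and 1864 in the Mll3/4-labelled cells, so sex and the Mll4 label cannot be told apart there.

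By the gate, B progenitors made up 98.9% of the kept cells of the Mll3/4-labelled library (98.6 to 99.1%) and, for the label Mll3 deleted, 7.76% of the kept cells (7.11 to 8.45%). The shares were 6.89% in control and 2.89% in the library labelled Mll4 deleted. These shares describe the choice of cells. Few cells lay near the threshold: 3 cells of the Mll3/4-labelled library had 15 to 20 per 10000 and 2 had 20 to 25, against 24 and 4 cells of the Mll3-labelled library. The markers fixed for the cell type were present in both libraries. Ebf1 stood at 1858 CPM in the Mll3/4-labelled and 1909 in the Mll3-labelled cells, Cd79a at 2996 and 1417, and Vpreb3 at 1950 and 3075. All these genes are part of the gate. Pax5, which is not, stood at 371 CPM in the Mll3/4-labelled cells and 190 CPM in the Mll3-labelled cells.

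The 2 sets of cells differed in depth and in RNA of other cell types. Mll3/4-labelled cells had a median of 10079 UMIs and Mll3-labelled cells 4720.5, and the summed counts were 83256918 and 3751994 UMIs. The 8 neutrophil markers summed to 10046 CPM in gated cells of the Mll3-labelled library, 25.3% of the level in its other cells, with 1 marker at 0. They summed to 279.8 CPM in the Mll3/4-labelled cells, 0.267% of the level in the 85 other cells of that library, with none at 0. Granulocyte progenitor markers summed to 1797 and 36.9 CPM, and the 8 markers of T, NK and innate lymphoid cells to 71.2 and 3.18 CPM. Mature B markers summed to 337 CPM in the Mll3-labelled and 15.8 CPM in the Mll3/4-labelled cells. A subtraction of this RNA, described with the progenitor genes, was run as an alternative, and genes at higher levels in the other cells of the Mll3-labelled library are named as such. The gated cells of the 2 libraries shared 1 barcode.

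Among 9333 genes with a mean of at least 5 CPM, 646 were at least 2-fold higher in the Mll3/4-labelled cells (6.92%) and 657 at least 2-fold lower (7.04%), on a scale of log2(CPM + 1), and the median log2 ratio was 0.0046. For scale, the Mll3-labelled cells differed from control by 2-fold in 0.399% of genes upward and 1.66% downward, 2.06% in all. Counts over the gene lists below stand against 6.92% of all genes higher and 7.04% lower. The lists were chosen with earlier results of these data known, so that comparison is a description only. A list with 1 such member of 12 or 18, or 2 of 20, lies near those shares. The lists held 195 measured genes, of which 27 were at least 2-fold higher and 48 at least 2-fold lower. Of these 75 genes, 37 kept a ratio past 2-fold under every alternative choice of cells and calculation that was run. The other 38 fell short of it under at least 1, many of which are given beside the genes. This count went by the ratio alone. The 37 thus include genes under the alternative threshold of a mean of 20 CPM, such as Cd34 at a mean of 11.5 CPM.

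**Figure D1:**
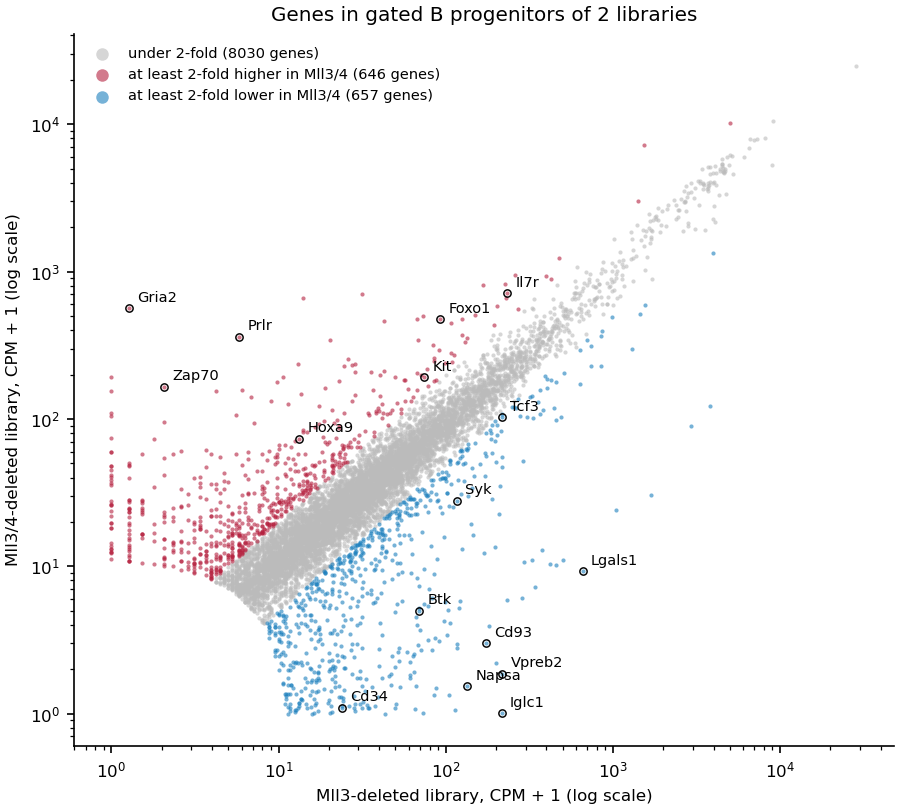
CPM + 1 of each tested gene in gated cells of the Mll3-deleted library (horizontal, log scale) and the Mll3/4-deleted library (vertical, log scale), with 1 point per gene and 16 genes named. The 646 red genes are at least 2-fold higher and the 657 blue genes at least 2-fold lower in the Mll3/4-deleted library, with Gria2 and Vpreb2 far from the diagonal on either side.

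The 12 highest ratios belonged to genes that were nearly silent in the Mll3-labelled cells. Gria2, a subunit of the AMPA glutamate receptor on chromosome 3 from 80681450 to 80802835, stood at 12.9 CPM in control, 0.267 in the Mll3-labelled (1 UMI), 21.7 in the Mll4-labelled and 565 CPM in the Mll3/4-labelled cells. That is 2119-fold higher than in the Mll3-labelled cells, with an interval of 380.3 to 83702. It was present in most Mll3/4-labelled cells: 6208 of 7323 held at least 1 Gria2 UMI. Prlr, the prolactin receptor, lies on chromosome 15 from 10177238 to 10349180 and signals through STAT5. It stood at 6.09, 4.80, 10.8 and 360 CPM in the same order. The level of Prlr in Mll3/4-labelled cells was 75.0-fold that of Mll3-labelled cells (47.5 to 127), and 5945 of the 7323 Mll3/4-labelled cells held the transcript. The Mll4-labelled levels rest on 10 UMIs in 5 cells for Gria2 and 5 UMIs in 5 cells for Prlr.

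Zap70, the Syk-family kinase of T and NK cell receptors, stood at 4.14 CPM in control, 1.07 in the Mll3-labelled, 32.5 in the Mll4-labelled and 164 CPM in the Mll3/4-labelled cells, a 154-fold ratio between the last and the Mll3-labelled cells (60.2 to 566). Of the 71.2 CPM of T, NK and innate lymphoid markers in Mll3-labelled cells, 63.2 CPM came from Nkg7, which stood at 163 CPM in other cells of that library. Cd3e, Cd3g, Trbc2 and Il2rb had 0 UMIs in Mll3-labelled cells and 14, 25, 47 and 26 UMIs in Mll3/4-labelled cells, at most 0.565 CPM each. A count of 0 in the Mll3-labelled cells allows up to 0.983 CPM, so no rise is shown for these genes. Other markers of the list were lower in the Mll3/4-labelled cells: Cd3d stood at 4.00 and 0.492 CPM, Klrd1 at 3.46 and 0.444 CPM and Gzma at 0.533 and 0 CPM. Epha5, an ephrin receptor, had 0 UMIs in the Mll3-labelled cells and stood at 0.244 CPM in control, 41.1 in the Mll4-labelled and 153 CPM in the Mll3/4-labelled cells, at least 191-fold above a floor of 3 counts in the Mll3-labelled cells. The Epha5 level of the Mll4-labelled cells rests on 19 UMIs in 10 cells, and none of those barcodes occurred in the Mll3/4-labelled library. The Zap70 level of the Mll4-labelled cells rests on 15 UMIs in 9 cells. Rnase10, a member of the ribonuclease A family, was at least 240.0-fold higher by the same floor, at 192 CPM. Cpne8 reached 109 CPM, Ly6c1 103, Brinp3 72.9, Sel1l3 58.7, Flrt2 58.3, the cannabinoid receptor gene Cnr1 46.9 and Serp2 46.8 CPM. Each of these 7 genes had 0 UMIs in the Mll3-labelled cells and at most 0.487 CPM in control.

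The 12 lowest ratios, taken among genes at least as high in the gated cells of the Mll3-labelled library as in its other cells, included immunoglobulin and surface protein genes. Cd93, the antigen that marks immature B cells as AA4.1, stood at 175 CPM in control, 172 in the Mll3-labelled, 165 in the Mll4-labelled and 2.01 CPM in the Mll3/4-labelled cells. Of the 4 libraries, Cd93 was low in the Mll3/4-labelled one alone. Lgals1, whose protein galectin-1 binds the pre-B-cell receptor on stromal contact, stood at 432, 658, 99.6 and 8.30 CPM, a 79.2-fold difference between Mll3- and Mll3/4-labelled cells (72.8 to 86.3). Napsa, an aspartic protease, was 247-fold lower, Myl10 250-fold, the leukocyte protein gene Lsp1 175-fold and Cplx2 56.4-fold. Fcrla, a B-cell Fc receptor-like protein, was 580-fold lower (276 to 1463). The others were Vpreb2 and the lambda constant genes Iglc1, Iglc2 and Iglc3, which are described with their groups. The gate had no rule against mature B cells with lambda RNA, a limit given with the light chain genes. Lgals1 was also present in other cells of the Mll3-labelled library, at 229 CPM.

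**Figure D2:**
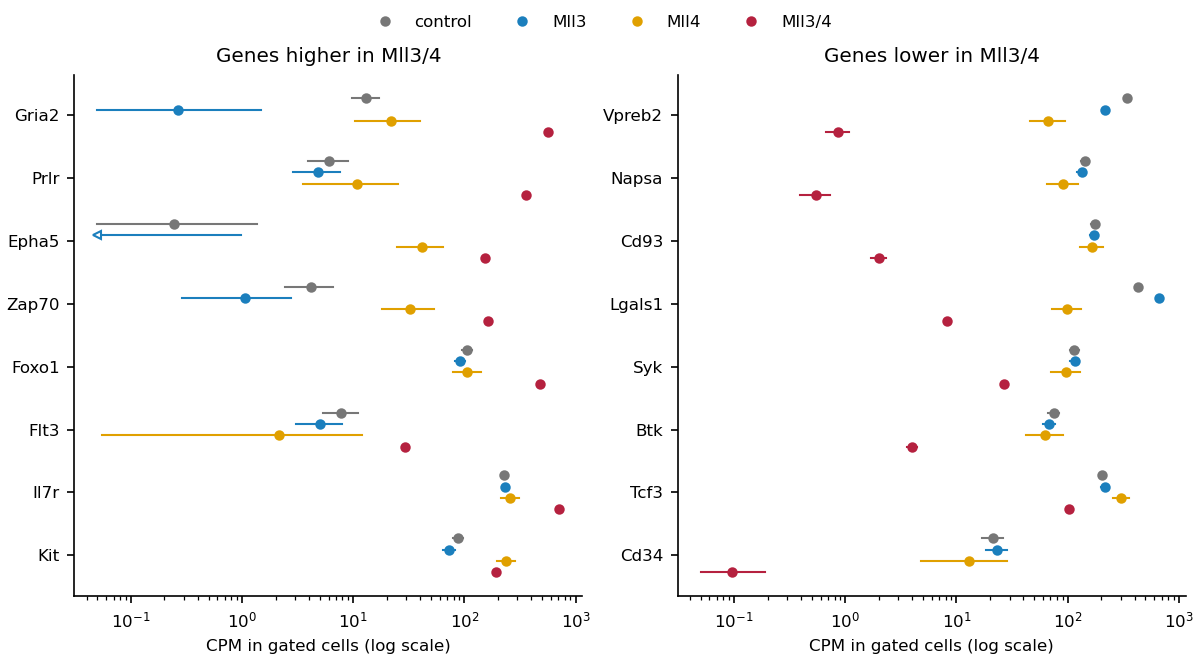
CPM of 16 named genes in gated cells of the 4 libraries (log scale, points) with exact Poisson 95% intervals (lines, clipped at the left edge); an open triangle marks a library with 0 UMIs. In the 8 genes on the left the Mll3/4-deleted library stands above the Mll3-deleted library, and in the 8 on the right below it. Kit is as high in the Mll4-deleted library as in the Mll3/4-deleted library.

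Among the genes of the pre-B-cell receptor and its signalling, 9 of 15 measured members were at least 2-fold lower in the Mll3/4-labelled cells, against 7.04% of all genes, and 1 was higher. Their median log2 ratio was -1.51. The surrogate light chain parted within itself. Vpreb2 stood at 342 CPM in control, 217 in the Mll3-labelled, 67.1 in the Mll4-labelled and 0.865 CPM in the Mll3/4-labelled cells, 251-fold below the Mll3-labelled cells (197 to 324). Its near copy Vpreb1 stood at 2892, 2373, 1451 and 2834 CPM and its partner Igll1 at 1085, 856, 851 and 1034 CPM. Vpreb1 and Igll1 are gate genes, so their levels are a description of the cells chosen, while Vpreb2 is not in the gate.

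Vpreb1 and Vpreb2 lie apart on chromosome 16. Stretches upstream of their RefSeq start sites are shown because this pair of near-identical genes parted in level. The single base that differs is in capitals. Both stretches come from RefSeq on GRCm38.p6 and run 5′ to 3′ on the strand of the gene. The Vpreb1 stretch is chr16:16869262-16869361 on the minus strand and the Vpreb2 stretch is chr16:17980315-17980414 on the plus strand.
Vpreb1: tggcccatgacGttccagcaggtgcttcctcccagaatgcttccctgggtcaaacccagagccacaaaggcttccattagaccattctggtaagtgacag
Vpreb2: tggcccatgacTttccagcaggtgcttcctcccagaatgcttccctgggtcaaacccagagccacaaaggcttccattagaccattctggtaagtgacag
Of the 100 bases compared, 1 differed. The Vpreb2 stretch is the first 100 bases of a window that begins 250 bases before its RefSeq start. The Vpreb1 stretch was placed by best match to it. Bases of Vpreb2 nearest its start were thus not compared. The Vpreb1 stretch lies within that gene as annotated in GENCODE M21 (16868403 to 16870843). The 250 bases before the start of Igll1, chr16:16863986-16864235 on the minus strand, are shown beside them, as the partner whose level stayed near that of the other libraries, with matches to CCCNNGGG (a core of EBF sites) and to CAGGTG on either strand (an E-box bound by E proteins such as Tcf3) in capitals.
Igll1: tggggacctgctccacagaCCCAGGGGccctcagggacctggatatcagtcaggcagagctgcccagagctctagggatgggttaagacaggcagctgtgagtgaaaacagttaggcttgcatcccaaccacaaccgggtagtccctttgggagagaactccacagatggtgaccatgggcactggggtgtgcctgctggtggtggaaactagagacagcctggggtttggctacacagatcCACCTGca
The same E-box letters start at base 19 of both Vpreb stretches. Of 27025 promoters of 300 bases in the RefSeq table, 20.03% held CAGGTG and 13.4% held CCCNNGGG on either strand, so these matches are common and describe the letters only. The 2 genes can still be told apart by their 3′ ends: of 211 windows of 90 bases in the last 300 bases of the Vpreb2 transcript, 0 occur in the Vpreb1 transcript, and over the whole transcript 107 of 670 do. How the authors' counting treated reads that fit both genes is not given in the sources used here.

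The kinases downstream of the receptor were lower. Syk stood at 115 CPM in control, 115 in the Mll3-labelled, 97.4 in the Mll4-labelled and 26.8 CPM in the Mll3/4-labelled cells, 4.30-fold below the Mll3-labelled cells (3.87 to 4.77). Btk, on the X chromosome, stood at 75.1, 68.5, 62.8 and 4.00 CPM, 17.1-fold lower (14.5 to 20.2). For both kinases the control, Mll3- and Mll4-labelled libraries lay close together and the Mll3/4-labelled cells stood apart. Blk stood at 16.3 CPM in Mll3-labelled cells and had 3 UMIs in the 7323 Mll3/4-labelled cells, a 451-fold ratio (147 to 2248). Lyn was 2.79-fold lower (2.41 to 3.21). With only the 215 Mll3-labelled and 7314 Mll3/4-labelled cells that held at most 40 per 10000 UMIs from markers of other cell types, the log2 ratio of Lyn was -0.93, under 2-fold.

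Of the adaptors and effectors, Plcg2, the phospholipase that Btk activates, stood at 50.1 CPM in the Mll3-labelled and 9.49 CPM in the Mll3/4-labelled cells. Pik3ap1, an adaptor to PI3 kinase, stood at 86.6 and 29.8 CPM. The negative regulators Dok3 and Ptpn6 (the phosphatase SHP-1) stood at 65.3 and 66.4 CPM in the Mll3-labelled cells and at 0.540 and 7.36 CPM in the Mll3/4-labelled cells. Ptpn6 was also at 78.2 CPM in other cells of the Mll3-labelled library. Bank1, a B-cell scaffold, was the member that was higher, at 11.2 and 52.3 CPM (4.67-fold, 3.45 to 6.49). In non-dividing cells Bank1 stood at 34.2 and 58.7 CPM, a log2 ratio of 0.76 and under 2-fold. The adaptor Blnk, Fyn, Cd24a and Cd72 differed by under 2-fold, with Blnk at 363 and 457 CPM.

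Light chain and pre-B maturation genes were lower in 7 of 11 measured members and higher in none, with a median log2 ratio of -3.61. Igkc and Ms4a1 were used to leave out mature cells, and without them 5 of 9 members were lower, with a median of -1.73. Igkc, the kappa constant region, stood at 88.9 CPM in control, 197 in the Mll3-labelled, 188 in the Mll4-labelled and 12.4 CPM in the Mll3/4-labelled cells. Iglc1, a lambda constant region, stood at 11.0, 215, 0 and 0.012 CPM, the last from 1 UMI. Lambda RNA was highest in the Mll3-labelled cells of the 4 sets. There 55 of 492 cells held 3 UMIs or more of it. In control 12 of 535 did, and in the Mll3/4-labelled cells 1 of 7323. The rule against mature cells asked for Igkc, so mature cells with lambda RNA alone would have stayed in. It took out 54 barcodes under the Mll3 label, 7 in control, 7 under the Mll4 label and 0 under the Mll3/4 label. Whether cells with lambda RNA were progenitors was not tested, which limits the ratios of the lambda genes, Fcrla and Ms4a1. With the cells that hold light chain RNA left out (97 of the Mll3-labelled and 104 of the Mll3/4-labelled cells), Igkc stood at 14.3 against 1.28 CPM, Iglc1 and Iglc2 were under 2-fold, and Fcrla moved from -5.52 to -3.22 on the log2 scale. Ms4a1 (CD20), 43 UMIs in 16 cells of the Mll3-labelled library, went to -0.33 there and to 0.051 after thinning. In cells high in surrogate light chain RNA, Igkc stood at 20.1 against 12.4 CPM, a log2 ratio of -0.65 and under 2-fold. Igkc stood at 123 CPM in other cells of the Mll3-labelled library. The surface proteins Cd53 and Cd52 were lower with and without those cells: Cd53, a tetraspanin, stood at 115 and 1.78 CPM, and Cd52, a small glycoprotein, at 378 and 114 CPM.

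In the Mll3/4-labelled cells 1530 of 7323 gated cells (20.9%) held at least 3 UMIs of an immunoglobulin heavy chain variable segment, spread over 35 segments, and in 62.6% of those cells the leading segment was Ighv1-23. None of the 492 cells of the Mll3-labelled library held that many, nor did any control or Mll4-labelled cell. The counts were taken at the 3′ end of transcripts, and whether the segments had been rearranged was not tested. A count of 0 in 492 allows a share of up to 0.610% of cells with 3 such UMIs at that library's lower depth, which is no limit on cells that express a segment. Summed over cells, the segments stood at 16.3 CPM in the Mll3-labelled cells (61 UMIs) and 407 CPM in the Mll3/4-labelled cells. In the Mll3/4-labelled cells the share was 16.7% in cells of the first hashtag alone, with Ighv1-23 leading in 58.4% of them, and 25.2% in cells of the second, with Ighv1-23 leading in 66.2%. Of 12 genes of recombination, 10 differed by under 2-fold, and the median log2 ratio of the list was -0.48. At least 2-fold higher was 1 of 12 (Xrcc5, 17.9 and 37.5 CPM, under 2-fold in dividing cells at a log2 ratio of 0.97) and 1 was lower (Xrcc6, 201 and 76.3 CPM), a pair that encodes the Ku heterodimer of end joining. Rag1 and Rag2, the recombinase, stood at 240.1 and 106 CPM in the Mll3-labelled cells and 390.01 and 132 CPM in the Mll3/4-labelled cells. Dntt, which adds bases at the joins, stood at 1052 and 659 CPM.

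Transcription factors of the B lineage were split, with 3 of 17 measured members higher, 4 lower. The median log2 ratio of -0.039 is that of the gate gene Ebf1, and without Ebf1 it was 0.054. Foxo1, which drives Rag and Il7r expression in B progenitors, stood at 106 CPM in control, 91.7 in the Mll3-labelled, 106 in the Mll4-labelled and 477 CPM in the Mll3/4-labelled cells, 5.20-fold above the Mll3-labelled cells (4.68 to 5.80). The other 3 libraries lay together. Bcl11a, needed for early B cells, was 2.62-fold higher at 277 CPM (2.37 to 2.90), and Zfp521, an antagonist of Ebf1, 7.51-fold higher at 18.02 CPM. Tcf3, which encodes the E2A proteins, stood at 205, 216, 303 and 102 CPM, 2.12-fold lower (1.97 to 2.28), and under 2-fold in dividing cells (-0.99 on the log2 scale). Factors of later B-cell stages were lower too: Irf4 stood at 28.0 and 11.7 CPM, Spib at 39.4 and 3.099 CPM and Ikzf3 (Aiolos) at 12.3 and 0.180 CPM. Without the cells that hold light chain RNA, the log2 ratio of Irf4 was -0.97 and that of Ikzf3 -1.61, against -1.19 and -3.49 with them, and Irf4 was at -0.72 in cells of the first hashtag alone. Ebf1, Lef1, Bach2, Myb and Sox4 differed by under 2-fold.

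The interleukin-7 receptor axis had 3 higher and 3 lower members of 15, and a median of -0.38, which was 0.10 after each cell was thinned to 4000 UMIs. Il7r, on chromosome 15 from 9505788 to 9530176, stood at 228 CPM in control, 231 in the Mll3-labelled, 260 in the Mll4-labelled and 709 CPM in the Mll3/4-labelled cells, 3.07-fold above the Mll3-labelled cells (2.87 to 3.28). Socs2 and Cish, feedback inhibitors that STAT5 induces, were higher as well: Socs2 at 41.8 and 211 CPM (5.04-fold, 4.31 to 5.94) and Cish at 8.26 and 25.9 CPM (3.13-fold, 2.20 to 4.62). Socs2 stood at 74.3 CPM in control and 99.6 in the Mll4-labelled cells. The lower members were the cyclins Ccnd2 (68.0 and 31.5 CPM) and Ccnd3 (427 and 182 CPM), which drive entry into the cell cycle, and the kinase Jak3 (8.53 and 2.88 CPM). In non-dividing cells Cish (0.55), Ccnd2 (-0.92) and Ccnd3 (-0.41) were under 2-fold on the log2 scale. Cells of the second hashtag alone had Cish at 12.6 and 14.4 CPM and Jak3 at a log2 ratio of -0.92, and cells of the first alone had Ccnd2 at -0.56. Ccnd2 was higher in other cells of the Mll3-labelled library, at 137 CPM. Jak1 stood at 116 and 191 CPM, and Stat5a and Stat5b were under 2-fold lower.

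Division genes lay below the Mll3-labelled cells without passing 2-fold in most cases. Of 20 S-phase genes, 6 were at least 2-fold lower (Mcm5, Rrm2, Rfc2, Cdc6, Gins2 and Uhrf1) and none higher, with a median of -0.61. Of 20 G2/M genes, 2 were lower (Ccnb2 and Birc5), against 7.04% of all genes, also with a median of -0.61. The G2/M median was 0.0054 among dividing cells. Those cells were chosen by 8 genes that are all in the G2/M list, Birc5 among them. The choice itself therefore bears on that median and on Birc5. Among dividing cells Mcm5 (-0.73), Rrm2 (-0.48), Rfc2 (-0.88), Cdc6 (-0.90), Ccnb2 (-0.43) and Birc5 (-0.49) were all under 2-fold on the log2 scale. Rrm2 turned to 0.17 among non-dividing cells, where Gins2 was at -0.85. Uhrf1, which carries DNA methylation through replication, stood at 172 and 54.5 CPM. Dividing cells, those with at least 3 per 10000 UMIs from 8 mitotic genes, made up 44.9% of the Mll3/4-labelled cells (43.7 to 46.0%), 68.3% of the Mll3-labelled cells (64.0 to 72.4%), 60.4% in control and 69.9% in the Mll4-labelled cells. After each cell was thinned to 4000 UMIs the shares were 42.2% of 6967 cells, 80.1% of 282, 75.8% of 298 and 93.3% of 30, which left out 356, 210, 237 and 133 shallower cells. The Mll3/4-labelled cells had the lowest share with and without thinning.

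The leading genes differed within either state. In dividing cells Gria2 stood at 515 CPM in the Mll3/4-labelled cells and at 0 UMIs in the Mll3-labelled cells, and in non-dividing cells at 622 and 1.56 CPM. Foxo1 stood at 437 and 77.8 CPM in dividing cells and at 523 and 159 CPM in the others. Vpreb2 stood at 0.541 and 188 CPM in dividing cells and at 1.23 and 358 CPM in the others. Kit differed by state: 178 and 58.2 CPM in dividing cells, and 206 and 145 CPM in non-dividing cells, under 2-fold. Cells high in surrogate light chain RNA (at least 10 per 10000 from Igll1, Vpreb1 and Vpreb2) made up 96.4% of the Mll3/4-labelled and 76.8% of the Mll3-labelled cells, and 96.0% and 92.6% after thinning, which also left out the shallower cells, 210 of the 492 in the Mll3-labelled set. Igll1 and Vpreb1 are gate genes, so this share is only a description of the cells chosen. In cells low in surrogate light chain RNA, 114 of the Mll3-labelled and 266 of the Mll3/4-labelled cells, several of the genes higher in all gated cells were under 2-fold: the log2 ratio was 0.84 for Il7r, 0.72 for Bmf, 0.18 for Bank1, 0.12 for Bcl2l1 and 0.069 for Kit.

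Early progenitor and stem cell genes parted into opposite groups: 9 of 17 measured members were at least 2-fold higher, 6 lower and 2 between, with a median of 1.26. Among the higher ones, the homeobox genes Hoxa7, Hoxa9 and Hoxa10 stood at 17.9, 12.3 and 0.7996 CPM in the Mll3-labelled cells and at 69.0, 72.5 and 13.8 CPM in the Mll3/4-labelled cells. Their cofactor Meis1 stood at 20.8 and 51.1 CPM, but at 37.3 and 51.0 CPM in non-dividing cells, a log2 ratio of 0.44 (-0.13 to 1.09). Flt3, the receptor of lymphoid-primed progenitors, stood at 7.80 CPM in control, 5.06 in the Mll3-labelled, 2.17 in the Mll4-labelled and 29.4 CPM in the Mll3/4-labelled cells (5.81-fold, 3.71 to 9.66). Kit, the stem cell factor receptor used to sort these cells, stood at 88.0, 73.0, 238 and 191 CPM. Kit was therefore high in both libraries with an Mll4 label. Eya1 stood at 2.92, 17.6, 8.66 and 95.8 CPM, and Ly6a (Sca1) and Cdkn1c were 3.92-fold and 4.88-fold higher than in the Mll3-labelled cells.

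The lower members were Cd34, Gata2, Lmo2, Egfl7, Notch1 and Angpt1. Notch1 stood at 24.1 CPM in control, 26.4 in the Mll3-labelled, 23.8 in the Mll4-labelled and 1.98 CPM in the Mll3/4-labelled cells, and Egfl7, a secreted vessel and stem cell factor, at 87.0, 97.8, 30.3 and 4.73 CPM. Cd34, Gata2, Lmo2 and Angpt1 were higher in the other cells of the Mll3-labelled library than in its B progenitors, with Cd34 at 59.2 and 22.9 CPM and Lmo2 at 328 and 82.1 CPM. A share of the profile of the other cells was subtracted as an estimate of free RNA. The share was 25.4% in the Mll3- and 0.388% in the Mll3/4-labelled library. It was set by the summed markers of neutrophils, granulocyte progenitors, monocytes, erythroid cells, megakaryocytes and basophils or mast cells. The log2 ratio was then -3.53 for Cd34, -0.33 for Gata2, 0.93 for Lmo2 and 0.10 for Angpt1. With this subtraction no lower level is shown for the last 3. The same share was used for all genes. Taken alone, the marker types gave from 7.17% (erythroid) to 44.3% (basophil and mast) in the Mll3-labelled library. Lmo2 was found in 163 of the 492 Mll3-labelled cells, and the source of its RNA was not tested. Notch1 and Egfl7 stayed at -3.51 and -4.23.

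Homing and adhesion genes were lower in 5 of 9 measured members and higher in none, with a median of -1.06. Lower members included Cxcr4, the receptor that keeps B progenitors in marrow niches, at 57.0 and 25.4 CPM, the integrin chain Itga4 at 254 and 120 CPM, Cd9 at 58.6 and 27.5 CPM and S1pr1 at 8.53 and 2.86 CPM. In cells with at most 40 per 10000 UMIs from markers of other types, these 4 genes were under 2-fold, with Itga4 at -0.96, Cxcr4 at -0.91, Cd9 at -0.78 and S1pr1 at -0.21 on the log2 scale.

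Among 10 genes of the Bcl2 family, 3 were higher and none lower. Bmf and Bbc3 (Puma), which promote apoptosis, stood at 6.40 and 2.67 CPM in the Mll3-labelled cells and at 43.6 and 16.4 CPM in the Mll3/4-labelled cells, and Bcl2l1, whose main product Bcl-xL protects cells, at 23.2 and 61.4 CPM. Bcl2 and Mcl1 differed by under 2-fold. Of 18 interferon response genes 4 were higher (Ifi213, Ifit3, Ifit1 and Usp18) and Ifitm3 was lower (-1.38, or -0.92 with hashtag 2 alone), with a median of 0.24, which was -0.13 at a mean of 20 CPM. Ifit1 stood at 7.55 CPM in control, 3.46 in the Mll3-labelled, 10.8 in the Mll4-labelled and 21.0 CPM in the Mll3/4-labelled cells. The 12 immediate early genes included 2 higher (Egr1, 10.9 and 63.9 CPM, and Dusp1, 8.80 and 33.2 CPM, or a log2 ratio of 0.78 with hashtag 2 alone) and 1 lower (Zfp36, 39.98 and 16.9 CPM, or -0.83 at the limit of 40 per 10000), with a median of -0.45 (0.013 after thinning), and Fos and Jun were under 2-fold lower.

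MHC class II genes gave 3 lower members, 1 higher and 3 between of 7. Cd74, H2-Aa and H2-Eb1 stood at 89.6, 38.9 and 23.99 CPM in the Mll3-labelled cells and at 2.13, 1.09 and 1.04 CPM in the Mll3/4-labelled cells. The Mll3-labelled levels came from few cells: the top 5 cells of the Mll3-labelled library held 82.1% of its Cd74 and 93.2% of its H2-Aa UMIs. The median log2 ratio of the list was -0.87, and it was 1.14 once cells above both hashtag thresholds were left out. H2-Eb1 then stood at -0.19, under 2-fold, and it turned to 1.13 in cells of the second hashtag alone. H2-Ab1, the beta chain partner of H2-Aa, stood at 109 and 177 CPM, and H2-Oa, a chain of the peptide-loading regulator, was 2.97-fold higher at 40.3 CPM (2.25 to 3.99). In non-dividing cells H2-Oa stood at 31.1 and 45.5 CPM, a log2 ratio of 0.53 (-0.083 to 1.26). The 14 measured subunits of COMPASS-family complexes, Kmt2c and Kmt2d among them, were all under 2-fold, with a median of 0.10 and Kdm6a at 49.0 and 52.2 CPM.

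**Figure D3:**
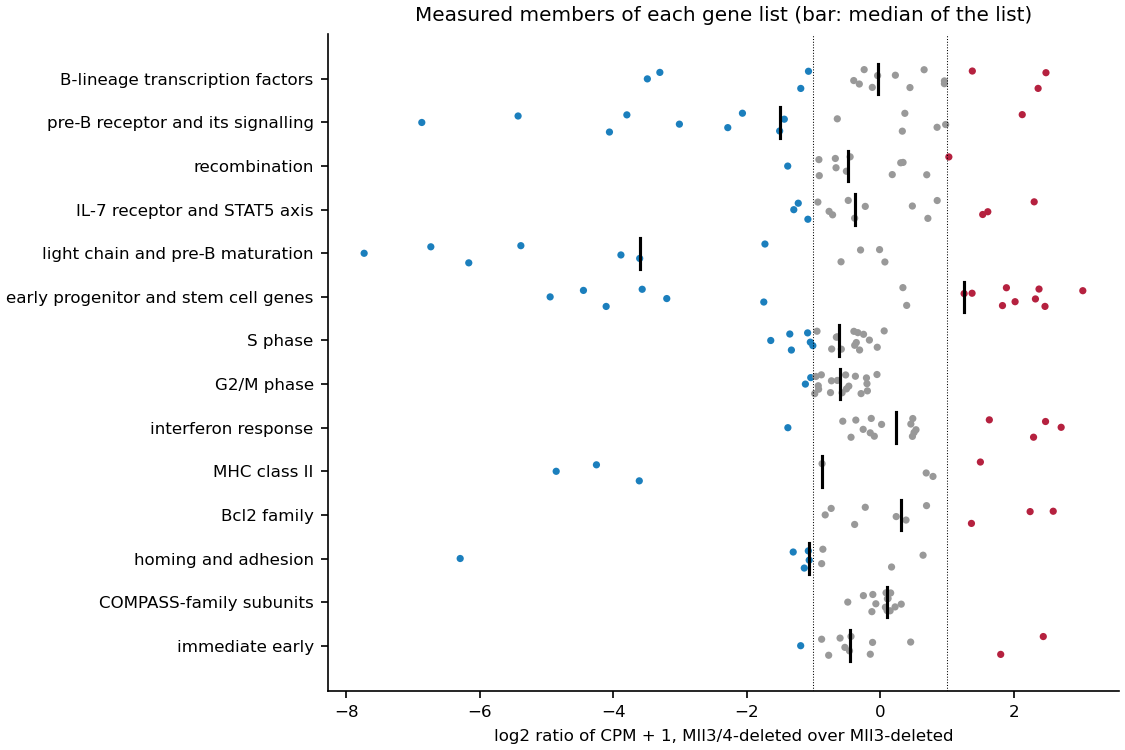
Log2 ratio of CPM + 1 between the Mll3/4-deleted and the Mll3-deleted library for the measured members of 14 gene lists, 1 point per gene, with black bars at list medians and dotted lines at 2-fold; vertical scatter within a list has no meaning. Red points are at least 2-fold higher and blue points at least 2-fold lower. Early progenitor genes lie on both sides of the dotted lines, and the COMPASS-family subunits lie between them.

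Surface antibodies were read in the same cells. Their counts depend on staining and depth in each library, and the median total per gated cell was 1260 in the Mll3-labelled and 573 in the Mll3/4-labelled cells, 1457 in control and 1429 in the Mll4-labelled cells. CD117, the Kit protein, had a median of 58 counts in control, 58 in the Mll3-labelled, 88 in the Mll4-labelled and 261 in the Mll3/4-labelled cells. A threshold was set for each antibody where 2 components of its counts cross in control cells outside the gate. The share of cells above that of CD117 was 81.6% in the Mll3/4-labelled cells (80.7 to 82.5%) and 10.6% in the Mll3-labelled cells (7.99 to 13.6%). Kit RNA was higher too, as given above. CD127, the Il7r protein, had medians of 30, 32, 56 and 46 counts, and the wide ranges of cells overlapped.

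CD48, a Slam-family receptor that was the most abundant antibody in the other libraries, had a median of 1038 counts in control, 838 in the Mll3-labelled, 934 in the Mll4-labelled and 27 in the Mll3/4-labelled cells. Its RNA went the same way, with Cd48 at 141 CPM, 123, 93.1 and 12.04 CPM in that order. Within the Mll3/4-labelled cells, the 1152 cells above the CD48 threshold (15.7%) had Cd48 RNA at 49.7 CPM (46.1 to 53.4), and the 6171 cells below it at 3.97 CPM (3.51 to 4.47). Gria2, at 476 and 584 CPM, Prlr, at 361 and 360 CPM, and Kit, at 185 and 193 CPM, differed little between those cells, and Vpreb2 was low in both, at 1.36 and 0.759 CPM.

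B220, the long form of CD45 on B cells, had medians of 193, 172, 182 and 14 counts in control, Mll3-, Mll4- and Mll3/4-labelled cells, while Ptprc RNA, which encodes all forms of CD45, stood at 115, 92.2, 158 and 116 CPM. The antibody and the summed RNA of its gene thus went apart, and a 3′ count does not tell the isoforms from each other. CD34 antibody had medians of 6, 7, 6 and 1 counts. Sca1 had medians of 18, 20, 21 and 29 counts, and 42.4% of Mll3/4-labelled cells passed its threshold against 26.0% of Mll3-labelled cells (41.3 to 43.5% and 22.2 to 30.1%), with the 90th percentile of Mll3/4-labelled cells at 345 counts.

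**Figure D4:**
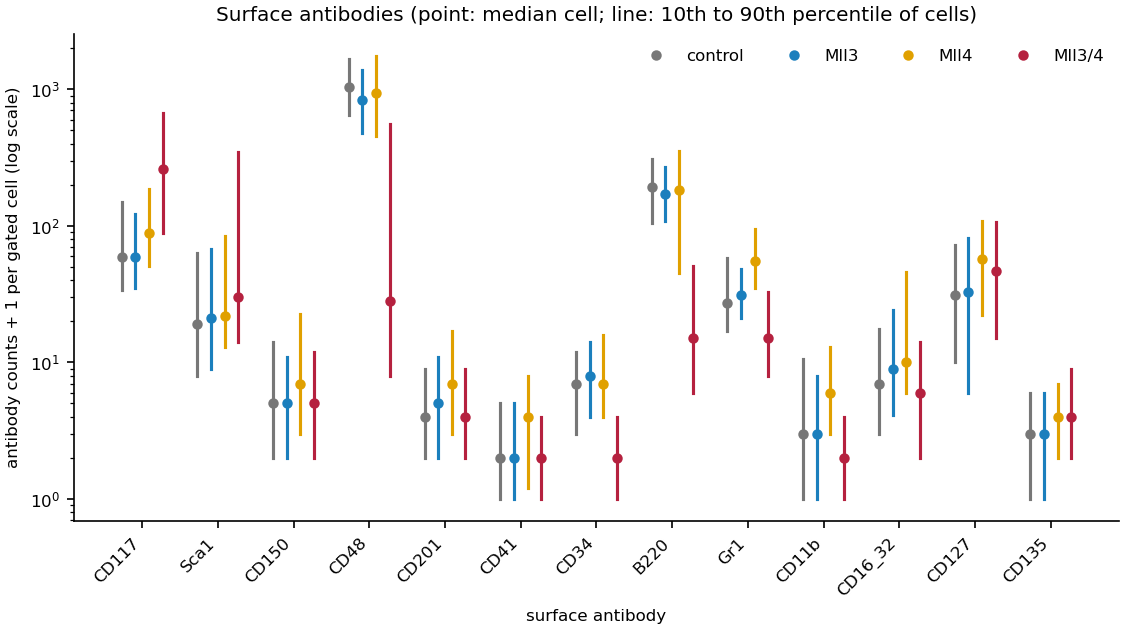
Counts + 1 of 13 surface antibodies per gated cell (log scale) in the 4 libraries, with points at the median cell and lines from the 10th to the 90th percentile of cells. In the Mll3/4-deleted library CD117 lies above the other libraries, with a median of 261 counts, and CD48 and B220 lie below them, with medians of 27 and 14 counts.

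Each library carried 2 hashtags, and cells with 1 hashtag alone formed 2 sets within it: 3932 and 3114 of the Mll3/4-labelled cells, 290 and 175 of the Mll3-labelled cells. The leading differences were present in both sets. Prlr stood at 370 and 345 CPM in the sets of the Mll3/4-labelled library and at 6.58 and 3.16 CPM in those of the Mll3-labelled library. Gria2 differed more between the sets, at 738 and 358 CPM, against 0.507 and 0 CPM. Vpreb2 stood at 1.16 and 0.577 CPM against 210.2 and 275 CPM, and Syk at 31.0 and 21.9 CPM against 127 and 107 CPM.

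**Figure D5:**
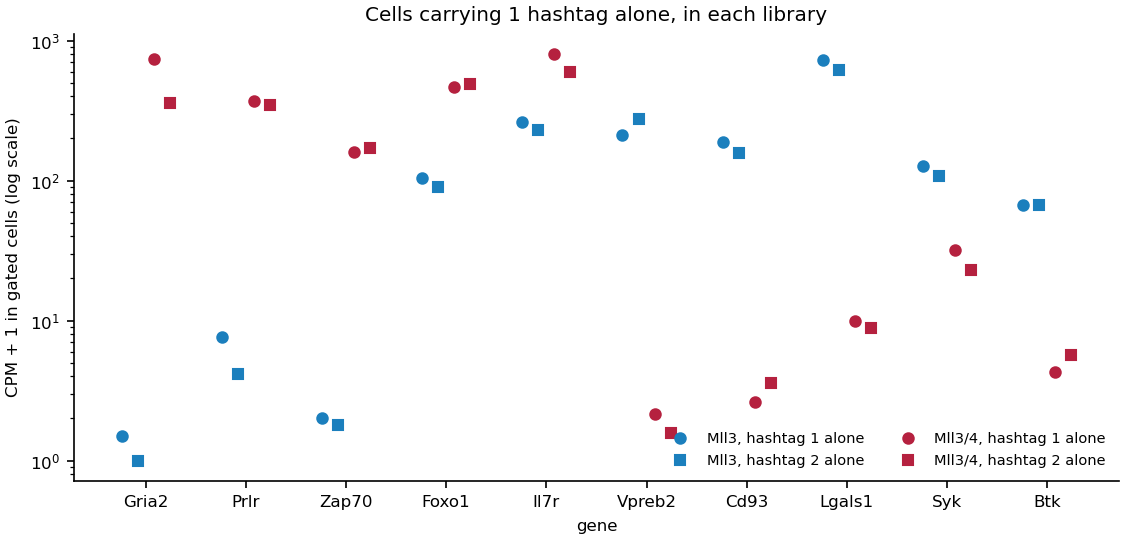
CPM + 1 (log scale) of 10 genes in gated cells that carry hashtag 1 alone (circles) or hashtag 2 alone (squares), in the Mll3-deleted (blue) and Mll3/4-deleted (red) libraries. For each gene both red points lie on the same side of both blue points, with Gria2 at 738 and 358 CPM in the red sets.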

How the data were processed

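Gene expression and surface antibodies were measured in 4 libraries, 1 per group. Counts of UMIs were made with Cell Ranger 6.1.2 on mm10, per the submitters' processing notes, and the deposited counts are not normalized; cell calling settings are not given in the sources used here. Groups come from the sample titles. Of 32285 gene identifiers, 32158 occur in GENCODE M21, which gave positions. The members and gene lists were chosen with earlier results of these data known.

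Barcodes were gated as described, on 4 libraries of 36413830 to 174795636 gene UMIs over 6622 to 10001 barcodes. UMIs were summed over gated cells per library and given as CPM. Log2 ratios carry a pseudocount of 1 CPM, genes needed a mean of 5 CPM, and 2-fold stood in for a test; folds are plain CPM ratios with exact conditional binomial intervals, levels have exact Poisson and shares exact Clopper-Pearson intervals. A count of 0 is set at a floor of 3 counts in the Mll3-labelled library. UMIs are independent molecules only as far as the tags tell, so intervals and floors cover counting error only. Named genes were the 12 highest and 12 lowest ratios at a mean of 10 CPM (without gate genes, Xist, Y-linked, mitochondrial and immunoglobulin segment genes; the lowest only where gated cells were at least as high as other cells of the Mll3-labelled library, which passed over 5 genes), list members past 2-fold, Kmt2c and Kmt2d. Cd48, Ptprc and other list members beside them were named after their values were seen. Some genes of these sets are not reported here; counts over lists include them. Antibody thresholds were mixture crossings in control cells, and those under 5 counts (B220, CD127 and CD135) were not used. Doublets stayed in and were left out as an alternative by both hashtags or by Scrublet in scanpy 1.11.5. edgeR 4.0.16 gave TMM factors only. On simulated counts, 193 of 200 changed genes were recovered for this comparison of 2 libraries. That number is no measure of how many differences between the real libraries were missed or falsely called. Promoter matches were searched on both strands of 300-base RefSeq windows.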

Additional observations from a re-analysis of the deposited data

Results flagged for a closer look

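Among the named genes, 8 were flagged because the difference that goes with the Mll4 label had opposite directions on the Mll3-labelled and on the control background. The 8 are not a full count. Other named genes, Tcf3 and Flt3 among them, also had opposite directions and were not flagged. The value given is the log2 ratio of the Mll3/4- over the Mll3-labelled library minus the log2 ratio of the Mll4-labelled library over control. It was -7.11 for H2-Eb1, -7.06 for Cd74, -6.85 for H2-Aa, -4.96 for Igkc, -4.80 for Gata2, -2.51 for S1pr1, -2.37 for Mcm5 and -2.23 for Irf4. Each library is 1 sample, so the difference was not tested. The Mll4-labelled levels rest on few UMIs in 163 cells: 66 for H2-Eb1, 125 for Cd74, 76 for H2-Aa, 87 for Igkc, 16 for Gata2, 12 for S1pr1, 124 for Mcm5 and 33 for Irf4. In that library the top 5 cells held 87.2% of the Cd74 and 92.1% of the H2-Aa UMIs. The lower level in the Mll3/4-labelled cells was itself lost for some of them: the log2 ratio over the Mll3-labelled cells was -0.33 for Gata2 with free RNA subtracted, -0.21 for S1pr1 in cells with at most 40 per 10000 UMIs of other types, 1.13 for H2-Eb1 with hashtag 2 alone, -0.65 for Igkc in surrogate light chain-high cells, -0.72 for Irf4 with hashtag 1 alone and -0.73 for Mcm5 in dividing cells.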

How the results depend on the processing

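No paired analysis was possible because each group has 1 library and the labels carry no replicate numbers. The 646 higher and 657 lower genes became 1028 and 1138 in cells low in surrogate light chain RNA, 1126 and 1112 with a mean of 1 CPM, and 271 and 328 with a mean of 20 CPM, where 17 list members were higher. Lower genes numbered 1145 in non-dividing cells, and higher genes 983 with free RNA subtracted. That setting, the limit of 40 and the removal of light chain cells were added once the data had been seen. The dividing share differed by -23.4 percentage points, -28.7 with hashtag 2 alone and -37.9 after thinning, and the surrogate light chain-high share by 19.5, or 3.44 after thinning. Gate genes enter the surrogate light chain-high share, which is a description of the cells chosen. CD117 medians differed by 2.15 on the log2 scale, or 1.67 and 2.73 with hashtag 1 or 2 alone. CD48 differed by -4.91, or -5.36 and -4.38 by hashtag and -5.04 in cells of at least 4000 UMIs, where B220 was at -3.45 against -3.52.

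The MHC class II median of -0.87 turned to 1.14 without cells above both hashtag thresholds, 1.18 without the highest Scrublet scores, 1.15 and 1.10 with hashtag 1 or 2 alone, 0.53 in non-dividing and 0.21 in surrogate light chain-low cells, and 0.69 at a mean of 20 CPM. The interleukin-7 axis turned to 0.073 with hashtag 2 alone, 0.10 after thinning and 0.48 at 20 CPM. G2/M turned to 0.0054 in dividing cells, which were chosen by genes of that list, and to 0.18 in surrogate light chain-low cells. Interferon turned to -0.036 in dividing cells, -0.034 in non-dividing cells, -0.13 at 20 CPM and -0.018 with free RNA subtracted. The median of B-lineage transcription factors turned to 0.054 without the gate gene Ebf1, an alternative added later. Immediate early genes turned to 0.091 in cells with at most 40 per 10000 UMIs of other types and 0.013 after thinning. Among genes, Angpt1 turned to 0.12 without the highest Scrublet scores, 0.21 with hashtag 2 alone and 0.10 with free RNA subtracted, H2-Eb1 to 1.13 with hashtag 2 alone, Rrm2 to 0.17 in non-dividing cells, Ms4a1 to 0.034 at the limit of 40 and 0.051 after thinning, and Lmo2 to 0.93. Among antibodies, CD201 turned to 0.32 with hashtag 2 alone and CD127 to -0.030 at 4000 UMIs. The cause was not tested. Over all alternatives, 19 of 310 list medians and 8 of 2112 values of named genes turned direction. A limit of 10 per 10000 UMIs of other types left 6 Mll3-labelled cells and was not run, and promoter shares among the higher and lower genes are void, since under 80% of them had a promoter in the table.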
